A study of Homo sapiens with 4 samples.

Results

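Long noncoding RNA genes that carry a systematic LINC name were followed in MOLM-13, an established line of human acute myeloid leukaemia with a KMT2A fusion, after hairpins against c-Myc and Bcl-2 were switched on. A gene was a member when its name was LINC followed by digits only and it reached at least 1 CPM (a count scaled to its library's total) in at least 1 of the 4 libraries. This held for 141 of 537 LINC-named genes, in a table of 24940 genes of which 13726 passed the same level. Members were thus selected on their measured levels, so which library carried a member past 1 CPM is a description and not a finding. The 4 libraries, 1 per group, were shControl (a negative control hairpin), sh-Bcl2 (Bcl-2 knockdown), sh-c-Myc (c-Myc knockdown) and the line with both hairpins, called the double knockdown. Every group was infected with lentivirus, selected in 0.5 µg/ml puromycin or 600 µg/ml G418, and treated with doxycycline, which induces the hairpins. The labels give 72 h of doxycycline for the Western blot, and no time is stated for the RNA. Nothing in the labels says how many clones or cultures lie behind a library. No group has a replicate, so the intervals below cover counting error in these 4 libraries and not the spread between cultures, and a difference is between libraries.

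Genes named LINC are long intergenic noncoding RNAs that were given a serial number because no function was known when they were named. Most such RNAs are spliced, polyadenylated and present in few copies per cell, and their expression is often restricted to a cell type or state. Some act on the gene next door, some are precursors of microRNAs, and a few turned out to encode small proteins. c-Myc is a transcription factor that binds the E-box CACGTG with its partner MAX and is a main driver of growth in leukaemia cells. Bcl-2 holds back apoptosis at mitochondria and is not a transcription factor.

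Levels are CPM scaled by the trimmed mean of M values (TMM), with 1 factor per library that assumes most genes do not change. The hairpin targets were lower in the libraries with their hairpin: in the order shControl, sh-Bcl2, sh-c-Myc, double knockdown, which holds for every set of 4 values below, BCL2 stood at 119.7, 38.7, 112 and 44.5 CPM and MYC at 434, 364, 278 and 302. The MYC messenger RNA was thus only 0.64 lower in log2 in sh-c-Myc than in shControl (95% interval 0.58 to 0.70). It was 0.27 lower in the double knockdown than in sh-Bcl2 (0.22 to 0.33), close to the 0.25 by which sh-Bcl2 alone lay below shControl, and in the 2 by 2 fit described below MYC did not pass for the c-Myc hairpin (log2 -0.41, edgeR adjusted p = 0.070). Libraries held 14421558 to 15691129 counts, and 3 counts correspond to 0.192 to 0.213 CPM. Of 10 markers of a myeloid leukaemia line, 9 reached 1 CPM, and the exception was CD34, at 0 to 0.513 CPM. The summed level of 10 monocyte and macrophage markers was 168, 272, 651 and 748 CPM, with 8 of the 10 at 1 CPM and VCAN and CD68 at or near 0 in all libraries. It was higher in both libraries with the c-Myc hairpin, as were many members below. The sum was highest in the double knockdown, while 94 of 141 members, and 31.7% of all genes, were highest in sh-c-Myc. The part of these markers in the member values was not tested. In bulk RNA, more cells of a state and more RNA per cell cannot be told apart.

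Promoter sequences are shown for 6 members on which the results turn, taken from RefSeq on GRCh38.p14 and running from 250 bases before to 50 bases after the annotated start. RefSeq held an entry for 98 of the 141 members, and 73 lay on the same chromosome and strand within 1000 bases of the GENCODE 29 start, a limit set after the entries were seen. Capitals mark CACGTG, the E-box, and GAGGAAGT, a core bound by the myeloid factor PU.1, both searched on both strands. LINC00482 (chr17:81309199-81309498, minus strand) had the largest fitted change, LINC01264 (chr10:42981458-42981757, minus strand) holds an E-box, LINC00324 (chr17:8223994-8224293, minus strand) was higher with the c-Myc hairpin in both backgrounds, LINC00887 (chr3:194312755-194313054, minus strand) was lower in both, LINC01268 (chr6:113873298-113873597, minus strand) is the myeloid RNA that RefSeq names MROCKI, and LINC01547 (chr21:44939864-44940163, minus strand) is read away from FAM207A.
LINC00482: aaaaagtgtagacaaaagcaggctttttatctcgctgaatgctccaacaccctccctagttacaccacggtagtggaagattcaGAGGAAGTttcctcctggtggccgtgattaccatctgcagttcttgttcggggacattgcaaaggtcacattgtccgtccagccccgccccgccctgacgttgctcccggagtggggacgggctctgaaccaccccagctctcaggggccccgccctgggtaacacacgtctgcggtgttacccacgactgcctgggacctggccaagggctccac
LINC01264: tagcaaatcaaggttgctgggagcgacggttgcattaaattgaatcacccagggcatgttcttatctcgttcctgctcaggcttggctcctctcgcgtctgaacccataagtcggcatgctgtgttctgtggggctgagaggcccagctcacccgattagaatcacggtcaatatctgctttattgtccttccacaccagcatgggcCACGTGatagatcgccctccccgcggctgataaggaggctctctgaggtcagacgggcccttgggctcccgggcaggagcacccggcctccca
LINC00324: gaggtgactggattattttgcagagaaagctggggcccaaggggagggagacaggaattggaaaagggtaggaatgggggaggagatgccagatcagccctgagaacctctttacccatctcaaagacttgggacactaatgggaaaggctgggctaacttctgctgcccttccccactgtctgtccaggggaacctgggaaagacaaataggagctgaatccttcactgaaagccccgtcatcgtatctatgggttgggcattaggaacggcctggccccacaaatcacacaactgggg
LINC00887: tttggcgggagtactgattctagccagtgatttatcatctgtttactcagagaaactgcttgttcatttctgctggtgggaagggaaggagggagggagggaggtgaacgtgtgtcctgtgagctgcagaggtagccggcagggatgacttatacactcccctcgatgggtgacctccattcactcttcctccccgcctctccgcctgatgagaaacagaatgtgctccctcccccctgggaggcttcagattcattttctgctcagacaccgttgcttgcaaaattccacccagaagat
LINC01268: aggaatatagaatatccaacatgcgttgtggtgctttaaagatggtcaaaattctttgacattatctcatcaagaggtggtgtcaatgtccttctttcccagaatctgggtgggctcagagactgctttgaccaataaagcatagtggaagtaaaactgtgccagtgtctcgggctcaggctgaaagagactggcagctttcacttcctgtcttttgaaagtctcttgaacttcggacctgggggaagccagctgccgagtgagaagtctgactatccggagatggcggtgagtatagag
LINC01547: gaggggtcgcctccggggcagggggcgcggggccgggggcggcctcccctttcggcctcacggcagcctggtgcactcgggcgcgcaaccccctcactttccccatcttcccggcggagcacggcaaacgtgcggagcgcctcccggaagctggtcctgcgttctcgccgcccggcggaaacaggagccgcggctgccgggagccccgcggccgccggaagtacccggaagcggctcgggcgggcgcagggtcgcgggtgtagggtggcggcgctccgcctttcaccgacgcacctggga
The E-box was present in 8 of 73 member promoters (11.0%), against 2548 of all 35116 RefSeq promoters of this length (7.26%). It occurred in 4 of 32 promoters of members that were higher in sh-c-Myc and in 4 of 40 of those not called. In LINC01264 it starts at position -43 from the start site. The other 3 members with an E-box among those higher in sh-c-Myc were LINC01126 at -39, LINC02381 at -55 and LINC01504 at -56, named after their values were seen. GAGGAAGT was found in 1 of 73 member promoters, that of LINC00482, against 909 of 35116 (2.59%). A match of letters is no evidence that a factor binds, and the 4 other promoters shown lack both strings only in this window.

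The members were low. Per length of transcript, in the deposited FPKM (fragments scaled to exonic length and library size), the median member averaged 0.940 over the 4 libraries and the median of 11486 protein-coding genes at the same CPM level averaged 6.75. The members ranged from 0.0233 to 41.8 FPKM on average, and 66 of 141 reached a mean of 1 FPKM. The highest mean belonged to LINC01388, named after its value was seen, with an exonic length of 416 bases and 33.2, 33.6, 54.0 and 46.5 FPKM. LINC00599, the host gene of microRNA miR-124-1, followed at 28.5 FPKM. At least 1 CPM was reached in all 4 libraries by 74 members and in only 1 library by 33, and for 22 of these 33 that library was sh-c-Myc. Those members entered the set through the library where they are high, and had to differ. Just inside the limit were LINC00565 with 5, 16, 9 and 3 counts, LINC00235 with 7, 11, 15 and 14, and LINC01435 with 3, 5, 12 and 16. Just outside were LINC01311 with 7, 1, 14 and 1 counts, LINC02580 with 0, 6, 14 and 14, and LINC01337 with 1, 2, 1 and 15.

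In GENCODE 29, 107 of the 141 members are typed as intergenic RNA, 12 as processed transcript, 9 as antisense, 8 as transcribed pseudogene and 1, LINC00672, as protein-coding. By position, 98 lay clear of protein-coding genes, 29 overlapped the span of one, and 14 started within 2000 bases of a protein-coding start and were read in the opposite direction. Whether the counting used strand is not stated in the labels. Of the members, 50 share some exonic bases with another gene and 91 share none, and LINC01089 is the only member that shares 50% or more (51.3%), so its counts are uncertain. It is named here after its value was seen.

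LINC-named genes together took a larger share of the sh-c-Myc library than of the others. Over all 537 genes shControl gave them 0.0604% of its counts (exact binomial 95% interval 0.0592 to 0.0617) and sh-Bcl2 0.0645% (0.0633 to 0.0658). The sh-c-Myc library gave them 0.129% (0.127 to 0.131), and the double knockdown 0.0817% (0.0803 to 0.0831). No pair of these intervals overlaps. LINC00599 alone supplied 8.86%, 9.45%, 19.8% and 12.5% of the LINC counts, and without it the shares were 0.0551%, 0.0584%, 0.104% and 0.0715%, in the same order of libraries. Genes with at least 1 count numbered 311, 325, 408 and 377 of 537. A larger share in sh-c-Myc was not particular to LINC-named genes. Clone-named noncoding genes took 0.443%, 0.475%, 0.790% and 0.581%, and antisense-named genes 0.213%, 0.201%, 0.284% and 0.227%.

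**Figure D1:**
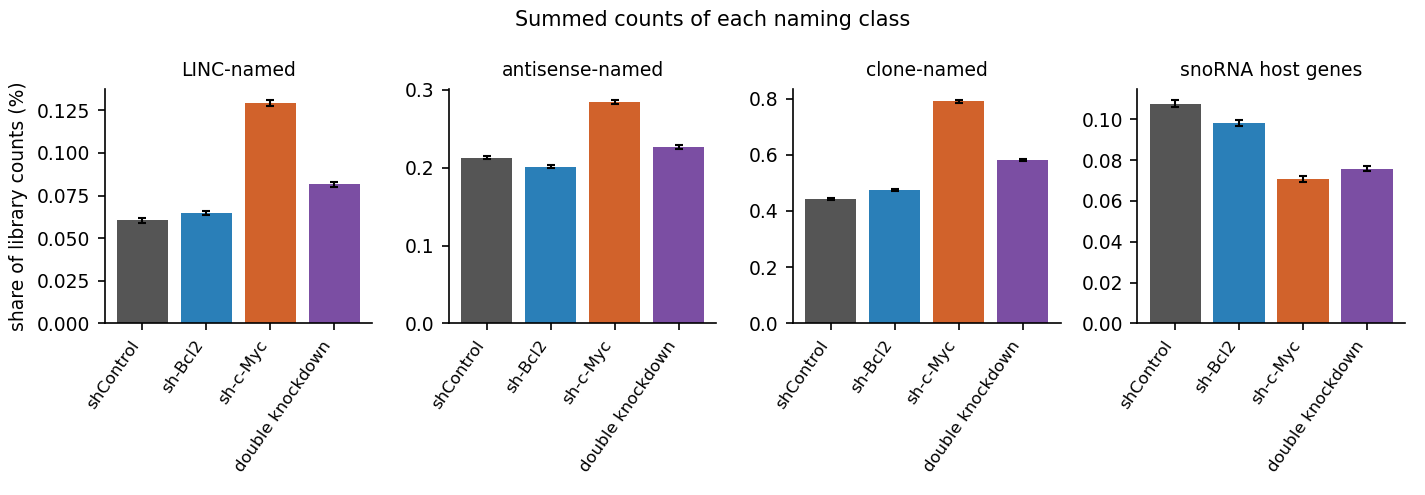
Share of each library's counts, in percent, taken by LINC-named, antisense-named and clone-named noncoding genes and by snoRNA host genes, with bars starting at 0 and exact binomial 95% intervals as error bars. LINC-named genes took 0.0604% in shControl and 0.129% in sh-c-Myc, clone-named genes 0.443% and 0.790%, and antisense-named genes 0.213% and 0.284%. The snoRNA host genes took 0.108% and 0.0707%.

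With the c-Myc hairpin alone, 58 of 141 members were higher and 4 lower than in shControl, where a call needs a ratio of at least 2-fold and a 95% interval that excludes 1. Among all 13726 genes at the same level, 12.7% were called higher and 9.8% lower. Of the 58, 18 reached 1 CPM only in sh-c-Myc and so had to be high there. That is the entry of 22 of the 141 members and of 543 of the 13726 genes. Among the 104 members with a mean of at least 1 CPM, 41 were higher and 2 lower, against 10.4% and 9.93% of all such genes. The background depends on level. Among genes whose highest library held 1 to 10 CPM, 28.2% were higher and 7.83% lower, against 44 of 108 members (40.7%) and 4. Among genes with 10 CPM or more in some library, 5.92% were higher and 10.7% lower, against 14 of 33 members (42.4%) and 0 lower. The median member ratio was 0.89 in log2, and that of all genes was -0.02. The median of genes with a mean of 50 counts or more was -0.10 under TMM and 0.08 under plain library totals. Under those totals 70 members were higher and 4 lower. The share of all genes under them is not given, so the 70 stand without a background.

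LINC00599 had the highest level and 793, 957, 3682 and 1584 counts, or 56.3, 63.2, 236 and 101 CPM. It lies at chr8:9900064-9905366 on the minus strand and is the host of a microRNA best known from neurons. Its level in sh-c-Myc was 4.19-fold that in shControl (3.88 to 4.54), and the double knockdown fell between them. LINC00926, an RNA known from B cells (chr15:57300365-57307769, plus strand), had 118, 115, 785 and 277 counts, or 8.38, 7.60, 50.3 and 17.7 CPM. Its ratio of sh-c-Myc to shControl was 5.99-fold (4.95 to 7.36). The libraries without the c-Myc hairpin were close to each other and both libraries with it were above them. Of 5 B cell markers, MS4A1 had no row, CD79B had at most 1 count, and the summed level of the 4 listed was 3.41, 2.51, 5.26 and 3.71 CPM. Among them CD79A, with 23, 23, 62 and 42 counts, followed the same order of libraries and PAX5, with 18, 6, 2 and 2, did not, and their part in the LINC00926 values was not tested.

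LINC01268 (chr6:113868013-113873351, minus strand) is listed in RefSeq as MROCKI, an RNA of monocytes next to MARCKS, and has been studied in myeloid leukaemia. Its counts were 99, 239, 567 and 349, or 7.03, 15.8, 36.4 and 22.3 CPM. It was 5.15-fold higher in sh-c-Myc than in shControl (4.17 to 6.47), and unlike LINC00926 it was also higher in sh-Bcl2. LINC00482 (chr17:81303771-81309248, minus strand) had 13, 14, 147 and 59 counts and was 9.87-fold higher in sh-c-Myc (5.79 to 19.6). LINC00211 (chr2:37826247-37876274, minus strand) had 15, 52, 111 and 79 counts and was 6.50-fold higher (3.88 to 12.3). Both were highest in sh-c-Myc and next in the double knockdown. LINC01841 had the largest ratio, 13.9-fold, but from 2 counts in shControl and 38 in sh-c-Myc, with an interval of 4.44 to 147.

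The 4 members that were lower in sh-c-Myc all had few counts. LINC00327 (chr13:23466571-23487464, plus strand) had 50, 55, 12 and 42 counts, which made it 4.47-fold lower in sh-c-Myc than in shControl (2.42 to 9.51), with the double knockdown close to the control. LINC01694 (chr21:45593654-45603056, plus strand) had 31, 11, 7 and 9 counts and was 4.65-fold lower (2.12 to 13.2). It was the only member called lower than shControl in all 3 knockdown libraries. LINC00887 had 15, 23, 5 and 4 counts and LINC01961 had 20, 15, 8 and 18, with ratios 3.12-fold (1.15 to 11.7) and 2.67-fold (1.17 to 7.26) lower.

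**Figure D2:**
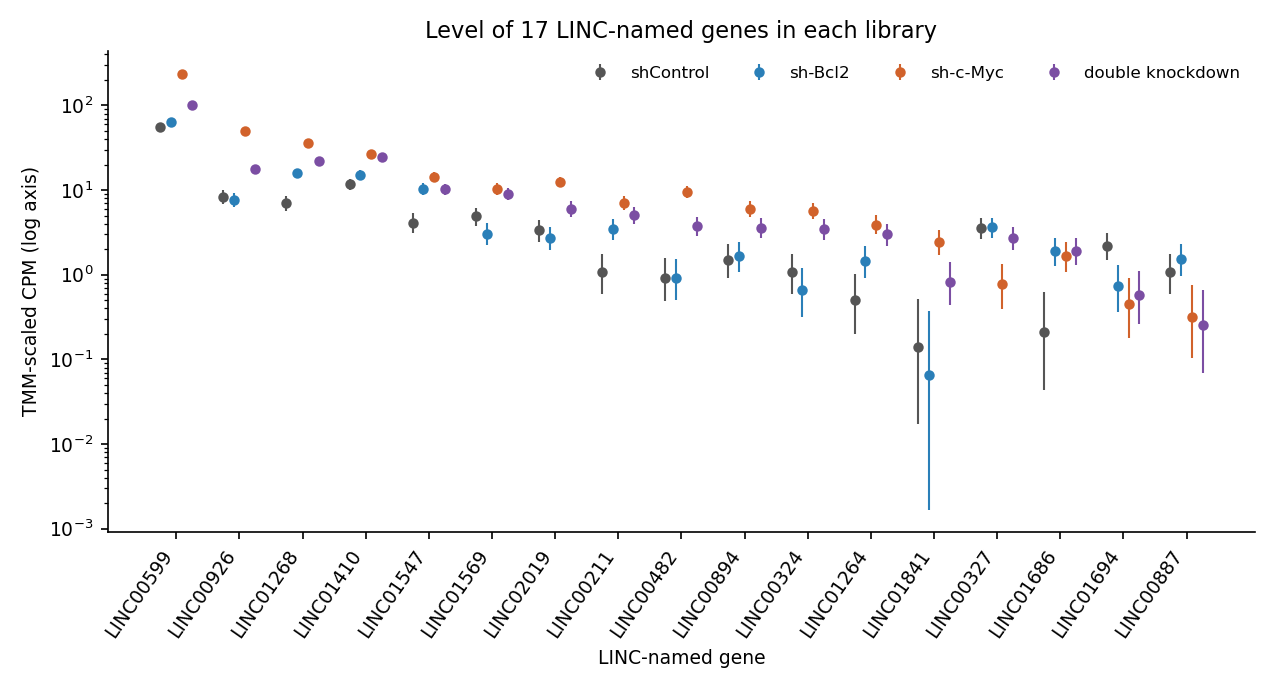
Level of 17 LINC-named genes in each library in TMM-scaled CPM on a log axis, with exact 95% counting intervals as bars and 1 point per library. LINC00599, LINC00926 and LINC00482 stand highest in sh-c-Myc with the double knockdown below it, and LINC00887 is lower in both libraries with the c-Myc hairpin.

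The layout gives the c-Myc hairpin a pair of comparisons that share no library, sh-c-Myc against shControl and the double knockdown against sh-Bcl2. In the latter, 20 members were higher and 4 lower, where 5.19% and 3.61% of all genes were called. At 1 to 10 CPM they were 16 and 4 of 108, against 11.9% and 6.61% of all such genes. At 10 CPM or more they were 4 and 0 of 33 (12.1% higher), against 2.23% and 2.29%. In both comparisons 13 members were higher (3.48% of all genes) and 1 was lower (2.18%). Some of the 13, LINC02169 among them, reached 1 CPM only in sh-c-Myc. Their sh-c-Myc level had to be high by the entry rule, so for them the pair of calls is not a free repeat. Calls in opposite directions were rare among all genes, 13 of 13726, and no member had them. At 1 to 10 CPM, 9 of 108 members (8.33%) were higher in both and 1 lower, against 7.06% and 2.58% of all such genes, so at this level the higher share is near the background. The 13 are 22.4% of the 58 and 65.0% of the 20. Over the 141 members the log2 ratios of the comparisons had a Pearson r of 0.45, and over all 13726 genes 0.60. Each comparison has its own libraries, and genes share the depth of theirs. In all 13 members the sh-c-Myc library was the highest and the double knockdown the next. The share of all genes higher in both that have this order is not given. The sh-c-Myc library was the highest for 66.7% of the 141 members, 31.7% of all genes and 48.7% of genes at 1 to 10 CPM.

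Of these 13, LINC00926 was 2.33-fold higher in the double knockdown than in sh-Bcl2 (1.87 to 2.92), and LINC00482 was 3.97-fold higher (2.25 to 7.92). LINC00324 (chr17:8220642-8224043, minus strand) had 15, 10, 89 and 54 counts, so both libraries without the hairpin lay below both with it. It was 5.22-fold higher without the Bcl-2 hairpin (3.08 to 9.98) and 5.03-fold with it (2.64 to 11.5). LINC01569 (chr16:4243943-4253817, minus strand) had 69, 46, 160 and 142 counts and ratios of 2.09-fold (1.57 to 2.82) and 2.97-fold (2.13 to 4.26). LINC02019 (chr3:50669989-50672048, plus strand) had 47, 41, 195 and 94 counts, and LINC00894 (chrX:149938628-150224580, plus strand) had 21, 25, 94 and 56. For both, the ratio was larger without the Bcl-2 hairpin, 3.72-fold and 3.97-fold, than with it, 2.21-fold and 2.15-fold. LINC01264 (chr10:42979017-42981507, minus strand), with the E-box shown above, had 7, 22, 61 and 47 counts and ratios of 7.41-fold (3.60 to 20.4) and 2.04-fold (1.22 to 3.60). LINC02169 had 3, 0, 30 and 11 counts, so that its level in the double knockdown was at least 3.55-fold higher than the 3-count floor of sh-Bcl2. The others were LINC01023, LINC01841 and, named after their values were seen, LINC00665, LINC00672 and LINC01422. The 1 member lower in both was LINC00887 (chr3:194296465-194312803, minus strand), 5.39-fold lower in the double knockdown than in sh-Bcl2 (2.03 to 23.6).

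**Figure D3:**
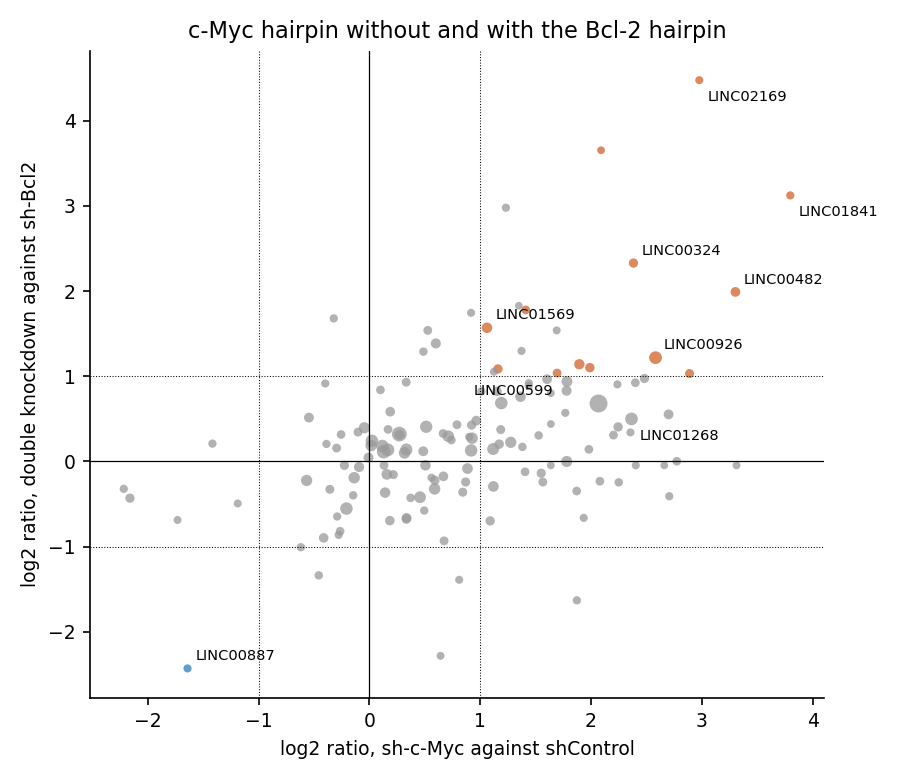
Log2 ratio of the double knockdown to sh-Bcl2 (vertical) against that of sh-c-Myc to shControl (horizontal) for the members, 1 point each and larger with higher mean level, with the member on the Y chromosome left out. Orange marks the 13 members higher in both comparisons and blue LINC00887, and dotted lines mark a 2-fold ratio. LINC02169 and LINC01422, the 2 highest points, have 0 counts in sh-Bcl2, so their height depends on the 0.5 added to each count.

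In the 2 by 2 fit across all genes (edgeR's quasi-likelihood test, 1 term per hairpin, Benjamini-Hochberg adjustment over 12672 genes), 25 of 104 members with a mean of at least 1 CPM rose with the c-Myc hairpin and 0 fell, with p at most 0.05 after adjustment, where 13.1% and 15.9% of all genes did. At an unadjusted p under 0.05 the members numbered 32 and 1, where 19.0% and 20.6% of all genes passed. DESeq2 called 7 higher and 0 lower, all of the 7 among the 25, with no adjusted p for 10 members. These 7 are 6.73% of the 104, close to the 6.53% of all genes that DESeq2 called higher, beside 9.71% lower. The limma-voom fit called the same 25 and 0, where 13.5% and 16.3% of all genes were called. The smallest adjusted p among members, 7.7e-07 in edgeR's test, belonged to LINC00926, with a fitted log2 change of 1.97 (SE 0.26). LINC00599 followed at 1.42 (SE 0.21, edgeR adjusted p = 4.1e-06), and LINC00482 had the largest fitted change, 2.75 (SE 0.47, adjusted p = 3.3e-05). LINC01268 rose by 1.44 (SE 0.28, edgeR adjusted p = 0.00021) and LINC00324 by 2.44 (SE 0.48, edgeR adjusted p = 0.00022), both in log2. With 4 libraries the fit has 1 residual degree of freedom, in which any interaction of the hairpins is mixed with library-to-library spread, so its p-values do not replace replicates.

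Fewer members differed with the Bcl-2 hairpin alone. Against shControl, 12 members were higher and 6 lower in sh-Bcl2, where 2.46% and 2.16% of all genes were called. By level, 10 of 108 members at 1 to 10 CPM were higher and 6 lower, against 6.85% and 5.89% of all such genes. At 10 CPM or more 2 of 33 were higher and 0 lower, against 0.524% and 0.514%. Those 2 were LINC01268, 2.24-fold higher (1.77 to 2.87), and LINC01547 (chr21:44932814-44939913, minus strand), with 58, 155, 222 and 160 counts and 2.47-fold higher (1.83 to 3.42). LINC01547 stood at 4.12 CPM in shControl and at 10.2 to 14.2 CPM in the other 3 libraries, all above the control. LINC01686 (chr1:182615254-182616629, plus strand) had a similar shape at a lower level, with 3, 29, 26 and 30 counts. LINC01588 had 16, 48, 53 and 45 counts and LINC01521 had 14, 35, 36 and 47. All 4 were low in shControl and higher in each of the 3 knockdown libraries. In all, 7 members were called higher than shControl in all 3 knockdown libraries: these 4, LINC01268, LINC00211 and LINC01264. Of all genes, 1.17% were called higher in all 3 and 0.517% lower. At 1 to 10 CPM the shares were 3.05% and 1.1%, against 5 and 1 of 108 members. With a single control library, an unusual shControl and an effect of any hairpin cannot be told apart.

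Members lower in sh-Bcl2 were LINC01023, LINC01481, LINC01237, LINC01347, LINC00618 and LINC01694. LINC01023 (chr5:108727825-108728260, minus strand) had 17, 5, 51 and 19 counts, lower with the Bcl-2 hairpin in either background and higher with the c-Myc hairpin in either. LINC01481 (chr12:69904033-70243360, minus strand), known as PRANCR, a regulator of keratinocyte growth, had 26, 13, 46 and 17 counts and was likewise lower in both, by 2.11-fold (1.07 to 4.55) and 2.66-fold (1.53 to 5.05). These were the 2 members called lower in both comparisons of the Bcl-2 hairpin (0.357% of all genes). LINC01226 was the 1 called higher in both (0.131%), with 7, 19, 2 and 12 counts. All 3 lay at 1 to 10 CPM, where 1.07% of all genes were lower and 0.334% higher in both. The pair of Bcl-2 comparisons had a Pearson r of 0.13 over the 141 members. In the 2 by 2 fit no member passed for the Bcl-2 hairpin in either direction with edgeR's test, where 0.0868% and 0.182% of all genes did, and the smallest adjusted p was 0.13. At an unadjusted p under 0.05, 0 members were higher and 10 lower, where 4.11% and 5.05% of all genes passed. DESeq2 called 0 and 0, and limma-voom called 0 and 1. GC content moved with this comparison: over 10739 genes its Spearman correlation with the log2 ratio was -0.35, and over the members -0.01. After a correction for GC content and gene length, 14 members were higher and 4 lower in sh-Bcl2, with no share of all genes given under it.

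Compared with shControl, the double knockdown had 26 members higher and 4 lower, where 7.11% and 5.95% of all genes were called. At 1 to 10 CPM they were 20 and 4 of 108 (18.5% and 3.70%), against 14.8% and 9.02% of all such genes. The median member ratio was 0.32 in log2, while it was 0.11 for sh-Bcl2 and 0.89 for sh-c-Myc. The 3 comparisons share the shControl library. LINC01268 was 3.17-fold higher (2.53 to 4.01), LINC01410 (chr9:62801461-62813486, plus strand; 164, 231, 415 and 384 counts) 2.11-fold (1.75 to 2.55) and LINC00926 2.11-fold (1.70 to 2.65). LINC00599 was 1.80-fold higher (1.65 to 1.96) and so was not called. LINC00618 with 17, 7, 8 and 5 counts and LINC01134 with 21, 18, 15 and 9 joined LINC01694 and LINC00887 as the 4 lower members.

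With sh-c-Myc as the base, 2 members were higher and 35 lower in the double knockdown, where 1.65% and 4.85% of all genes were called. At 1 to 10 CPM they were 2 and 29 of 108 (1.85% and 26.9%), against 3.25% and 14.6% of all such genes. At 10 CPM or more they were 0 and 6 of 33 (18.2% lower), against 0.954% and 0.556%. For 22 of the 141 members and 543 of the 13726 genes sh-c-Myc was the only library at 1 CPM, so they had to be lower here. Among the 104 members with a mean of at least 1 CPM, 1 was higher and 20 lower, against 1.40% and 3.01% of all such genes. The median member ratio was -0.49 in log2. LINC00926 was 2.84-fold lower than in sh-c-Myc (2.47 to 3.27), LINC00599 2.33-fold (2.20 to 2.47) and LINC00482 2.49-fold (1.83 to 3.44). LINC01410 differed by 1.08-fold (0.941 to 1.25), an interval that includes 1, and LINC01569 by 1.13-fold (0.896 to 1.43). So 3 of these 5 were called lower with both hairpins than with the c-Myc hairpin alone, and for the other two counting error covers the difference. This comparison shares the sh-c-Myc library with that of sh-c-Myc against shControl. It shares the double knockdown library with the other comparisons of the double knockdown, so its values are independent of neither. LINC00327 and LINC01226 were the 2 higher members. The GC content of genes moved with this comparison too (Spearman correlation -0.31 over 10739 genes and -0.22 over the members), and its part was not tested.

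Departure from additivity was taken as log2 of double knockdown over shControl, less the log2 ratios of both single hairpins. It was below 0 by at least 2-fold, with an interval excluding 0, for 33 members and above 0 for 5, where 5.81% and 3.02% of all genes were so called. At 1 to 10 CPM it was below 0 for 26 of 108 and above for 5, against 15.4% and 5.44% of all such genes. All comparisons in it share shControl, and a low control library lowers it by construction. So does a high sh-c-Myc library, through which alone 22 of the 141 members reached 1 CPM. LINC00599 had the most precise value, -1.39 (-1.55 to -1.23), and LINC01268 had -1.87 (-2.25 to -1.48). The lowest were LINC02340 at -3.50 (-5.53 to -1.48), from 9, 10, 38 and 3 counts, and LINC00862 at -3.36 (-6.50 to -0.22), from 2, 2, 27 and 2. These 2 were high in sh-c-Myc alone. LINC01001 followed with 4, 13, 32 and 10 counts and -3.12 (-4.95 to -1.28), then LINC00565 at -2.93 (-5.18 to -0.68) and LINC01686 at -2.77 (-4.54 to -1.01). Above 0 stood LINC01347 at 2.0 (0.40 to 3.61), from 17, 6, 15 and 21 counts, LINC01694 at 1.89 (0.20 to 3.58), LINC00327 at 1.73 (0.67 to 2.79), LINC01961 at 1.63 (0.12 to 3.13) and LINC01515 at 1.06 (0.34 to 1.78), from 74, 50, 56 and 74. LINC00324, at -0.05 (-1.28 to 1.18), lay near 0, with a wide interval.

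Among the 10 members with the highest mean CPM, 6 were called in no comparison with shControl. LINC00963 (chr9:129483451-129513686, plus strand) had 46.2, 35.3, 55.7 and 44.1 CPM and LINC00667 (chr18:5237826-5246508, plus strand) had 30.3, 28.5, 33.2 and 30.9. LINC00342 had 21.6, 18.6, 24.2 and 20.5 CPM. LINC01578 is better known as CHASERR, which lies upstream of the chromatin remodeller gene CHD2 and lowers its expression, and it had 20.5, 15.5, 20.8 and 18.4 CPM. LINC00869 had 19.9, 15.4, 21.5 and 17.5 CPM, and LINC00662 had 22.4, 20.0, 19.4 and 13.6, the only 1 of these 6 that was lowest in the double knockdown. Among the 6, the largest ratio to shControl was that of LINC00662, 1.64-fold lower (1.37 to 1.96). The other 4, LINC00599, LINC00926, LINC01268 and LINC01410, were all called higher in sh-c-Myc.

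Of 10 LINC-named RNAs listed as studied in myeloid leukaemia or granulocyte formation, 5 were members, 2 were listed below 1 CPM and 3 had no row of that name. LINC01268 was higher in all 3 knockdown libraries. LINC00265 had 12.0, 15.0, 16.5 and 11.2 CPM, LINC00909 had 11.0, 11.1, 13.7 and 11.9, LINC00649 had 4.90, 4.03, 4.87 and 4.16, and LINC00899 had 2.84, 3.70, 3.59 and 2.30. None of these 4 was called in any comparison, and for LINC00909 the interval of the ratio of sh-c-Myc to shControl was 1.01 to 1.54-fold. LINC00173, an RNA of granulocyte formation, had 2, 0, 4 and 0 counts, and LINC00987 had 1, 0, 0 and 0. Of 7 LINC names known to encode a small protein, only LINC00467 was in the table under that name. It encodes a micropeptide of the mitochondrial ATP synthase and had 4.61, 4.62, 5.58 and 5.76 CPM, with a ratio of sh-c-Myc to shControl of 1.21-fold (0.867 to 1.69).

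The nearest protein-coding gene by start site reached 1 CPM for 103 members. In sh-c-Myc against shControl, 50 of these members were called, and the neighbour was called the same way for 3, the other way for 6 and not at all for 41. Over all 103 neighbours 8 were called higher and 10 lower, shares no larger than those of all genes, so the 6 are not read as a tendency to opposite change. Over the pairs the log2 ratios had a Pearson r of 0.13, and pairs are not independent of library depth. The median neighbour ratio was -0.04 in log2, against 0.93 for the members of these pairs. In the double knockdown against sh-Bcl2, 19 members of these pairs were called. There the neighbour was called the same way for 3, the other way for 0 and not at all for 16. Over all 103 neighbours 4 were higher and 3 lower, where 5.19% and 3.61% of all genes were called, and the Pearson r was 0.33.

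LINC01547 starts 97 bases from FAM207A, a ribosome assembly gene read in the opposite direction. FAM207A had 27.8, 11.8, 8.98 and 7.42 CPM, so it was highest in shControl, where LINC01547 was lowest. The opposite order holds only against shControl: from sh-Bcl2 to the double knockdown the LINC01547 ratio was 1.00-fold (0.797 to 1.26) while FAM207A stood at -0.67 in log2, and from sh-c-Myc to the double knockdown both were lower, at -0.47 and -0.27. FAM207A was 1.62 lower in log2 in sh-c-Myc (1.35 to 1.92 lower), 1.23 lower in sh-Bcl2 and 1.90 lower in the double knockdown. LINC00324 starts 13443 bases from AURKB, a mitotic kinase gene on the same strand, which had 61.8, 45.4, 23.9 and 30.9 CPM. AURKB was lower than in shControl in both libraries with the c-Myc hairpin, where LINC00324 was higher. In sh-Bcl2 both were below shControl, AURKB at -0.44 and LINC00324 at -0.67 in log2, and neither was called. RGS16, a regulator of G-protein signalling 10846 bases from LINC01686, had 29.4, 37.9, 6.16 and 9.40 CPM. It was lower in both libraries with the c-Myc hairpin but not in sh-Bcl2, where LINC01686 was already high.

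The 3 pairs that moved the same way in sh-c-Myc were LINC02019 with DOCK3, a guanine nucleotide exchange factor gene 5252 bases away (2.42 in log2), LINC00452 with GAS6, a ligand of TAM receptors (1.49), and LINC01694 with SLC19A1, the reduced folate carrier (-1.35). DOCK3 was low, at 0.568, 0.0661, 3.21 and 1.09 CPM, and the interval of its ratio in sh-c-Myc was 1.41 to 3.79 in log2. MARCKS, a substrate of protein kinase C 15989 bases from LINC01268, had 41.1, 31.8, 50.9 and 61.2 CPM. Its log2 ratio in sh-c-Myc was 0.31, where LINC01268 had 2.37. RET, a receptor tyrosine kinase 95520 bases from LINC01264, had 147, 131, 288 and 329 CPM and was called higher in the double knockdown but, at 0.97 in log2, not in sh-c-Myc. HNRNPR, an RNA-binding protein gene beside LINC01355, and FOXD4L1 beside LINC01961 were also called opposite to their member. The pairs of LINC00452 and LINC01355 were named after their values were seen.

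**Figure D4:**
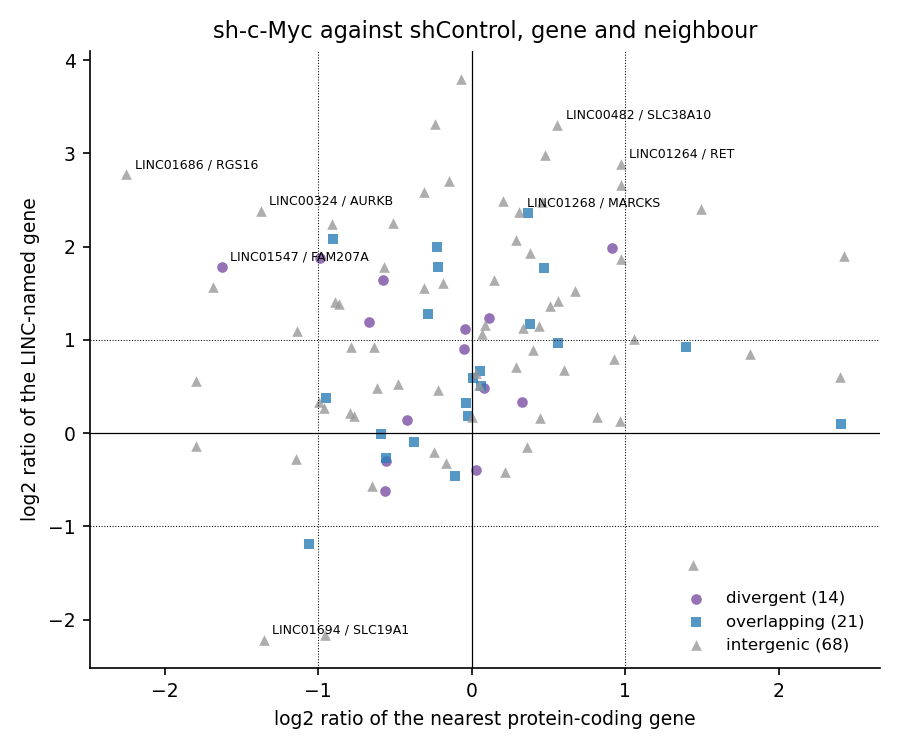
Log2 ratio of sh-c-Myc to shControl for each member (vertical) and for its nearest protein-coding gene (horizontal), 1 symbol per pair by position class, with dotted lines at a 2-fold ratio. LINC01547, LINC00324 and LINC01686 are above 1 while FAM207A, AURKB and RGS16 are below -1.

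By position class, 6 of 14 divergent, 9 of 29 overlapping and 43 of 98 intergenic members were higher in sh-c-Myc. Members that share no exonic base with another gene numbered 43 higher and 4 lower of 91, and those that share some 15 and 0 of 50. Other noncoding classes passed through the same rule gave like shares: 34.2% of 278 antisense-named genes, 34.2% of 1227 clone-named genes and 33.3% of 15 microRNA host genes were higher in sh-c-Myc, beside 41.1% of the LINC members and 8.97% of 11486 protein-coding genes. The snoRNA host genes, which carry the guide RNAs of ribosome assembly in their introns, stood apart in direction, with 0 of 17 higher and 9 lower. The classes differ in level. At 1 to 10 CPM in the highest library, 40.7% of 108 LINC members and 24.2% of 2324 protein-coding genes were higher in sh-c-Myc. Antisense-named genes gave 35.6% of 219 there and clone-named genes 34.8% of 1096. At 10 CPM or more the LINC members gave 42.4% of 33 and protein-coding genes 5.11% of 9162. Antisense-named genes gave 28.8% of 59 at that level and clone-named genes 29.8% of 131. No difference between classes was tested.

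**Figure D5:**
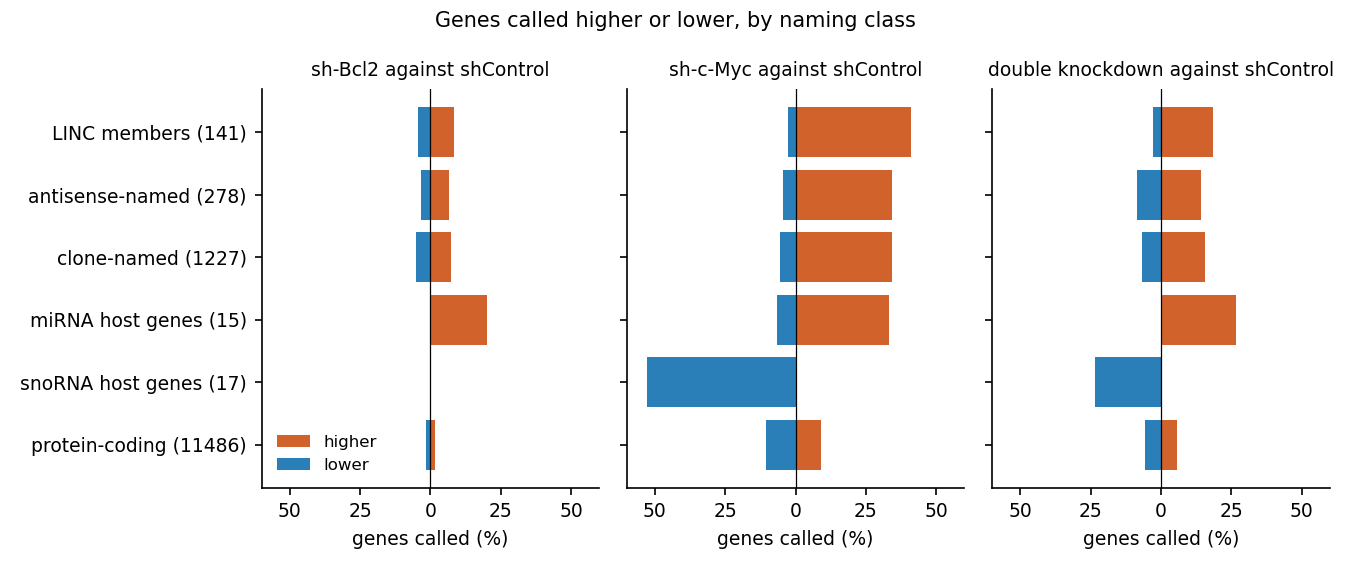
Share of genes called higher (right of 0) or lower (left of 0), in percent, by naming class in each comparison with shControl, with the number of genes in brackets. In sh-c-Myc 41.1% of LINC members and 34.2% of clone-named genes were called higher, and 52.9% of snoRNA host genes lower.

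The genes whose 4-library pattern lay closest to a member were found as the smallest distance between log2 levels centred per gene (0.5 CPM added), over 4 libraries only. For LINC00324 these were MYO15B, MMP19, a matrix metalloproteinase, and P2RX1, an ATP-gated channel. P2RX1 had 81.3, 68.1, 319 and 202 CPM. For LINC00887 they were AL157895.1, the adhesion gene JAM3 with 4.05, 5.75, 2.24 and 1.98 CPM, and MEGF10, an engulfment receptor gene. With 4 points many genes lie close to any pattern.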

How the data were processed

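RNA was measured in 4 MOLM-13 libraries, 1 per group. Per the submitters' processing notes, reads were aligned to GRCh38 with HISAT2 and the deposited counts were made by the authors with HTSeq 0.13.5. The deposited FPKM values are the authors' counts per exonic length and library size, and lengths implied by them were whole within 0.01 base for all 81017 values checked. Positions and types came from GENCODE 29, in which all 24940 gene identifiers were present. The values of 1 neighbouring gene are not reported here. Members and lists were chosen with earlier results of these data known. Named members are the highest by mean CPM, the extremes of each comparison and of the departure, those on the lists and those next to the 1 CPM limit.

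Counts were scaled by TMM (edgeR 4.0.16, R 4.3.3), with factors 0.950, 0.965, 1.08 and 1.01. Ratios have 0.5 added to each count and exact 95% intervals from the conditional binomial, which cover counting error only, since reads are not independent molecules. A call needs a 2-fold ratio and an interval without 1. The 2 by 2 fit used edgeR's quasi-likelihood test with 1 term per hairpin on 12672 genes with a mean of 1 CPM, with DESeq2 1.42.0 and limma-voom 3.58.1 as alternatives, and was checked on simulated data. Other scalings, filters, thresholds, FPKM and a GC and length correction were tried. Totals were 14825763, 15691129, 14421558 and 15494138 counts.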

Additional observations from a re-analysis of the deposited data

Results flagged for a closer look

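Among the named members, 5 had a hairpin ratio of opposite sign without and with the other hairpin with both 95% counting intervals excluding a ratio of 1. Opposite signs without that condition were common among the members. The difference was not tested, since each background has 1 library per group. For the Bcl-2 hairpin LINC00599 was at 0.17 without and -1.22 with the c-Myc hairpin, a difference of -1.39. LINC01268 was at 1.16 and -0.70 (difference -1.87), LINC01547 at 1.31 and -0.47 (difference -1.78) and LINC00211 at 1.66 and -0.49 (difference -2.15). LINC00265 was at 0.32 and -0.56 for the Bcl-2 hairpin and at 0.46 and -0.42 for the c-Myc hairpin, a difference of -0.88 in both by construction, and none of its ratios reached 2-fold.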

How the results depend on the processing

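No called result changed sign under the settings tried. Counts in this part are of members only, without the shares of all genes under each setting. No paired analysis was possible because the groups share only replicate number 1, and with 1 library per group none could be left out within a group. With FPKM and 1 added before log2, the comparisons with shControl gave 1 member higher and 1 lower for sh-Bcl2, 24 and 0 for sh-c-Myc, and 4 and 0 for the double knockdown. The same setting left 2 higher and 0 lower with the c-Myc hairpin in both backgrounds, and 0 and 1 with the Bcl-2 hairpin. Adding 1 shrinks the ratios of low genes by construction. With 0.1 added, 0 members were lower with the c-Myc hairpin in both backgrounds and 0 higher with the Bcl-2 hairpin. With a mean of 1 CPM required, the lower members numbered 3 for sh-Bcl2, 2 for sh-c-Myc and 1 for the double knockdown, and in both backgrounds 0 were lower with the c-Myc hairpin and 0 higher with the Bcl-2 hairpin. With no CPM filter 10 were lower in sh-c-Myc. At 1.5-fold 10 were lower in sh-Bcl2 and 22 higher with the c-Myc hairpin in both backgrounds. Among members sharing no exonic base 3 were lower in sh-Bcl2, and 0 were higher and 1 lower with the Bcl-2 hairpin in both backgrounds.

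After the data were seen, members with 10 CPM in some library were taken alone: 2 were higher and 0 lower in sh-Bcl2, 14 and 0 for sh-c-Myc, 6 and 0 for the double knockdown, 4 and 0 with the c-Myc hairpin in both backgrounds and 0 and 0 with the Bcl-2 hairpin. Leaving out the shControl and sh-c-Myc libraries, also added, 20 were higher with the c-Myc hairpin, from the double knockdown against sh-Bcl2. In the 2 by 2 fit DESeq2 called 7 higher with the c-Myc hairpin. With 1 CPM required in 2 libraries, or no filter, 1 was lower with the c-Myc hairpin. With limma-voom, no filter or total counts, 1 was lower with the Bcl-2 hairpin. Members alone took 0.0572%, 0.0611%, 0.122% and 0.0768% of counts. Of 690 alternatives for single named genes 31 moved, 26 of them with 1 added to FPKM. For other moves the cause was not tested. Members near 1 CPM rest on about 15 counts, so their ratios are the least precise.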
